A study of Homo sapiens with 64 samples.

Results

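The genes described here encode the structural maintenance of chromosomes (SMC) proteins and their closest partners. They are 9 listed genes, and all 9 were found by symbol in each table: among 26364 genes in the RNA immunoprecipitation (RIP) and C4-2 tables, 25207 genes in the HEK293T table and 31796 gene names in the SLAM-seq tables. SMC1A, SMC3, RAD21, STAG1 and STAG2 belong to cohesin, SMC2 and SMC4 to condensin, and SMC5 and SMC6 to the SMC5/6 complex. The members were chosen by name with results of these data known, among them the lower SMC3 level after FBL knockdown in SLAM-seq total reads, so that contrast is given only as a description. All 9 passed the low-count filter in every experiment.

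The study lowered fibrillarin (FBL), the methyltransferase of the box C/D small nucleolar ribonucleoprotein, or NOP56, a scaffold protein of the same particle, with small interfering RNAs (siRNAs). In C4-2, a prostate cancer line, cells received siFBL or the control siRNA siCTRL, and RNA was sequenced at 0, 3, 6 and 12 h (2 libraries per siRNA and hour). In HEK293T, a line from embryonic kidney, cells received siFBL, siNOP56 or siCTRL, and RNA was sequenced at 0, 6, 12 and 24 h (2 libraries per siRNA and hour). RIP with an antibody against FBL was done in C4-2 cells with siCTRL (2 RIP and 2 input libraries), and SLAM-seq, which reads thiol-labelled uridine as T>C conversions, in C4-2 cells with siFBL or siCTRL (8 libraries each). SLAM-seq cells took up 100 µM 4-thiouridine for 24 h, then had 10 mM uridine instead, and were collected at labelled 0, 6, 12 and 24 h with 3′ end libraries. The stated purpose of the hours is mRNA half-life, but the sources used here do not say how new transcription was stopped in the other courses. The sample labels name siNOP56 where the series design names shNOP56, and the labels were followed.

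Cohesin is a ring that holds sister chromatids together and extrudes chromatin loops. SMC1A and SMC3 are the ATPases that form its arms, RAD21 is the kleisin subunit that closes the ring and is cut by separase at anaphase, and STAG1 and STAG2 are alternative subunits that bind RAD21. Condensin, with SMC2 and SMC4 as its ATPases, compacts chromosomes in mitosis, and the SMC5/6 complex acts in DNA repair and at stalled replication forks. Several condensin subunits and regulators of cohesion are more highly expressed in dividing cells.

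The total counts per library were 79 to 106.1 M in C4-2, 16 to 19.9 M in HEK293T, 22.9 to 33.3 M in RIP and input, and 9.4 to 41.8 M reads in genes in SLAM-seq. FBL was at 0.601 to 3.63 CPM (counts scaled to a common library total, with trimmed-mean normalisation) in the 8 C4-2 siFBL libraries, against 265.4 to 387.8 CPM in the 8 siCTRL libraries, and at 7.19 to 17.7 CPM against 302.9 to 485 CPM in HEK293T. In SLAM-seq FBL had few reads, at 0 to 0.086 CPM in siFBL and 0.126 to 1.94 CPM in siCTRL. NOP56 was at 49.9 to 91.9 CPM in the 8 siNOP56 libraries, against 146 to 205.8 CPM in siCTRL. Summed HEK293T markers (PAX2, LIN28B and NES) were at 81.4 to 158.3 CPM in HEK293T and 12.4 to 68.2 CPM in C4-2. Summed leukocyte markers reached 2.78 CPM in C4-2 and 6.22 CPM in HEK293T, and summed fibroblast markers 43.2 and 65.2 CPM.

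Promoters of 4 members are shown because SMC4 and SMC2 had the largest fitted falls among called members at 0 and 12 h in C4-2, SMC3 is the gene named by the rule, and STAG1 rose in HEK293T while it fell in C4-2. RefSeq (GRCh38.p14) windows of 300 bases, 250 before to 50 after the start site, were matched by symbol for 8 of the 9 members. Capitals mark words of 3 kinds, on either strand: the cell cycle homology region word TTTGAA, the CCAAT box word CCAAT, and E2F words TTTCCCGC, TTTCGCGC, TTTGCCGC or TTTGGCGC. On the other strand TTTGAA reads TTCAAA and CCAAT reads ATTGG. The windows are SMC4 at chr3:160399400-160399699 (+), SMC2 at chr9:104094059-104094358 (+), SMC3 at chr10:110567445-110567744 (+) and STAG1 at chr3:136752329-136752628 (-), each printed on the gene's strand.
SMC4: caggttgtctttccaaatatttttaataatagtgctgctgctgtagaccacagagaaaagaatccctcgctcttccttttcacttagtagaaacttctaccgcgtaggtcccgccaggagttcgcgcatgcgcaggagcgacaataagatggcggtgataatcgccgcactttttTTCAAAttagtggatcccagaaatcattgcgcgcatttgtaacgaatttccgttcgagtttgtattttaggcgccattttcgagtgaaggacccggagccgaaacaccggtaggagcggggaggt
SMC2: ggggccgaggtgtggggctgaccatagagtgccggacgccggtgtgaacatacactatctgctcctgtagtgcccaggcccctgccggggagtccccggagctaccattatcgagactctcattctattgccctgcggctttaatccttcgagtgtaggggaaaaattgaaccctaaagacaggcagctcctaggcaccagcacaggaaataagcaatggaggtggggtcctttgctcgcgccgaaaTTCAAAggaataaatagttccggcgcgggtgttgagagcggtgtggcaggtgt
SMC3: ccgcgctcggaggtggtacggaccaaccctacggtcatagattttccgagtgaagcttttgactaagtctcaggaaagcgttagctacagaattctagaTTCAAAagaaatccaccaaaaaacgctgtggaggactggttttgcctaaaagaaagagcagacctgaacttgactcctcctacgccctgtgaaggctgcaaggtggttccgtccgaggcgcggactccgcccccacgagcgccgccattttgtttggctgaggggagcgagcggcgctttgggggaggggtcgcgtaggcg
STAG1: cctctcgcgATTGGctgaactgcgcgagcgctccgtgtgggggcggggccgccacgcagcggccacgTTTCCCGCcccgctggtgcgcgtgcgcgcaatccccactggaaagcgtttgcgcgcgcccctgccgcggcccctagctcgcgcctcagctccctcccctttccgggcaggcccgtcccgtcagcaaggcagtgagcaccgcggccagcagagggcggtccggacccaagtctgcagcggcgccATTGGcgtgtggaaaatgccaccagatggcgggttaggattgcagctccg

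Among all 13 windows of these 8 members, TTTGAA was present for SMC2, SMC3 and SMC4, against 15.2% of all 35116 windows in the table. The E2F words were present for 4 members (STAG1, STAG2, SMC1A and SMC6), against 3.31% of all windows. CCAAT was present for 2 members (STAG1 and STAG2), against 34.6% of all windows. SMC2, SMC4, SMC1A and STAG2 have more than 1 annotated start, so a match refers to 1 of their windows. The counts are of members, some with more than 1 window, while the percentages are of windows, so the 2 are not like for like. The words were also chosen after the sequences were seen, so no excess is read from them. These matches describe letters and do not show that a factor binds.

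Levels per kb of merged exon length (GENCODE v29) set the members in order before knockdown. In C4-2 siCTRL at 0 h, RAD21 averaged 46.9 CPM per kb and SMC4 46.6 CPM per kb, and the ranges of their libraries overlapped. SMC3, SMC1A and STAG2 followed at 23.6, 23.3 and 21.8 CPM per kb, again with overlapping libraries, and SMC6 was lowest at 4.07 CPM per kb. In HEK293T siCTRL, SMC1A was highest at 42.5 CPM per kb and STAG1 lowest at 4.46 CPM per kb. STAG1 was at 9.36 CPM per kb in C4-2 and SMC6 at 7.88 CPM per kb in HEK293T. The order depends on the lengths used. Merged length and longest transcript are 5539 and 3749 bases for RAD21, and 6543 and 5471 bases for SMC4. The SMC3 model, of 4114 bases, ends inside the interval given for its 3′ end in SLAM-seq.

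All 9 members were higher in anti-FBL RIP than in input in C4-2 cells. The RIP experiment asked which mRNAs are recovered with FBL. The series holds no RIP with a control antibody or in siFBL cells, so recovery with FBL and nonspecific recovery cannot be told apart. STAG2 had 1441 and 1288 CPM in RIP, against 210.6 and 200.6 CPM in input, and rose by a log2 change of 2.73 ± 0.07 (standard error; edgeR adjusted p = 2.4e-24). SMC3 had 368.7 and 334.3 CPM in RIP, against 53.9 and 60.7 CPM in input (2.62 ± 0.07, adjusted p = 2.8e-24). The RIP libraries lay far above the input libraries for both genes, and the groups did not overlap. STAG1 and SMC1A rose by 2.61 ± 0.07 and 2.52 ± 0.07, with adjusted p-values of 4.5e-25 and 6.8e-24.

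The condensin and SMC5/6 members rose by smaller amounts. SMC2 had 238.5 and 215.8 CPM in RIP, against 57.8 and 58.7 CPM in input (1.96 ± 0.07), and SMC4 475.5 and 430.8 CPM in RIP, against 137.6 and 133.3 CPM in input (1.74 ± 0.07). SMC6 and SMC5 rose by 1.87 ± 0.08 and 1.61 ± 0.07. RAD21, the kleisin, rose least, with 535.3 and 507.6 CPM in RIP against 315.2 CPM in each input library (0.73 ± 0.06, adjusted p = 6.3e-12). Across all genes tested 82.9% were called, 39.9% higher and 43% lower, so the count of 9 of 9 stands against a high background. With scaling by library totals the all-gene median was -1.05 in place of -0.11, and RAD21 was at -0.22 (adjusted p = 0.0021), which is opposite in sign, while the other 8 members stayed called as higher. That scaling split all called genes into 2783 higher and 10433 lower, against 5967 and 6439.

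Among 30 tested of the 33 partner genes of these complexes, 19 were higher and 10 lower in RIP (13 and 13 with library totals). NIPBL, the cohesin loader (4.12 ± 0.08), SMCHD1, an SMC-like chromatin protein (3.73 ± 0.08) and PDS5B, a cohesin regulator (2.58 ± 0.07) rose most. PTTG1, the securin that holds separase inactive (-2.71 ± 0.08), NSMCE1 and NSMCE2, SMC5/6 subunits (-2.06 ± 0.08 and -1.57 ± 0.11), fell most. Of 10 proliferation genes, 7 were higher and 2 lower (6 and 3 with library totals). The median over the 9 members was 1.96 and over the partners 0.83, against -0.11 over all 14967 genes.

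**Figure D1:**
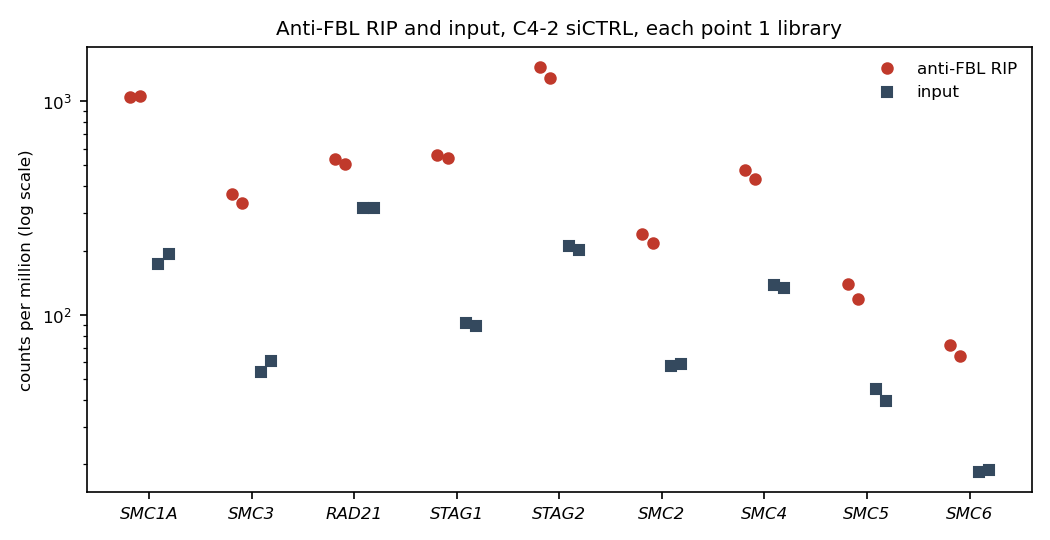
CPM of the 9 genes in 2 anti-FBL RIP and 2 input libraries of C4-2 siCTRL cells, on a log axis, each point being 1 library. The RIP points of every gene lie above its input points, as for 43.2% of all genes tested, with the smallest gap for RAD21.

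In C4-2 cells 6 of the 9 members fell at 0 h of siFBL and none rose. The question was which mRNA levels change when FBL is lowered, before the hours of the half-life course, and fewer cells of a type and less RNA per cell cannot be told apart in these bulk libraries. Across all genes 8.48% were called, 1.61% higher and 6.87% lower, that is 377 and 1611 genes, and with library totals 1216 and 873. SMC4, the condensin ATPase, had 81.3 and 60.9 CPM in siFBL, against 335.2 and 275.1 CPM in siCTRL, a fall of 4.29-fold (log2 change -2.10 ± 0.27, edgeR adjusted p = 1e-04). SMC2, its partner, had 28.9 and 24.0 CPM in siFBL, against 87.7 and 77 CPM in siCTRL (-1.64 ± 0.23, adjusted p = 2.3e-04). Both siFBL libraries lay well under both siCTRL libraries for each of these. Deviations of same-numbered libraries of 1 siRNA correlated between hours at -0.14 to 0.80 in C4-2 and -0.03 to 0.91 in HEK293T, while the fit counts each library as independent.

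Of the cohesin members, SMC1A had 100 and 106.1 CPM in siFBL, against 240.1 and 222.8 CPM in siCTRL (-1.17 ± 0.13, adjusted p = 2.1e-05). STAG1 had 29.2 and 30.1 CPM in siFBL, against 67.8 and 55.5 CPM in siCTRL (-1.06 ± 0.16, adjusted p = 5.4e-04). RAD21 had 130.4 and 142.7 CPM in siFBL, against 278.6 and 240.8 CPM in siCTRL (-0.93 ± 0.14, adjusted p = 6.3e-04). The siFBL means were 0.445, 0.481 and 0.526 of the siCTRL means for SMC1A, STAG1 and RAD21, and no siFBL library reached a siCTRL library. STAG2, the other STAG subunit, did not pass the test, with 107 and 155.9 CPM in siFBL, against 160.9 and 127.9 CPM in siCTRL (-0.14 ± 0.19, adjusted p = 0.68).

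SMC3 was lower in both siFBL libraries but did not pass the test at 0 h. It had 58.1 and 26.4 CPM in siFBL, against 107.2 and 86.7 CPM in siCTRL (-1.20 ± 0.65, adjusted p = 0.27), and the siFBL libraries differed from each other by more than the siCTRL libraries did. SMC6, of the SMC5/6 complex, had 12.3 and 16.7 CPM in siFBL, against 24.9 and 21.1 CPM in siCTRL (-0.66 ± 0.20, adjusted p = 0.049). That call was lost without siCTRL library 1, siCTRL library 2 or siFBL library 1. It was also lost with library totals (-0.41, edgeR adjusted p = 0.099) and with only the 4 libraries contrasted. SMC5 had 32.6 and 45.3 CPM in siFBL, against 63 and 54 CPM in siCTRL (-0.59 ± 0.18, adjusted p = 0.052). SMC5 was called in 7 of the 12 alternatives, among them DESeq2 (-0.66, adjusted p = 0.0092) and the fit without siFBL library 2 (-0.85, adjusted p = 0.024).

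At 12 h the same 6 members and SMC5 were lower, 7 of 9, against 13.4% of all genes called, 2.73% higher and 10.7% lower (640 and 2504 genes, and 1652 and 1667 with library totals). SMC4 had 125.5 and 68.3 CPM in siFBL, against 446 and 471.7 CPM in siCTRL (-2.24 ± 0.27, adjusted p = 4.1e-05). SMC2 had 46.4 and 25.7 CPM in siFBL, against 139.7 and 147.9 CPM in siCTRL (-1.99 ± 0.23, adjusted p = 2.7e-05). SMC1A, STAG1, RAD21 and SMC6 were at -1.22, -1.16, -1.05 and -1.04, and STAG2 again at -0.14 (adjusted p = 0.68). SMC5 was at -0.71 ± 0.18 (adjusted p = 0.014), a call lost without siCTRL library 1 (0.061) or 2 (0.1) and with only the 4 libraries contrasted. SMC3 was at -1.79 ± 0.66 (adjusted p = 0.089) and was called without siFBL library 1 at 12 h, at -3.60 (adjusted p = 0.0038). At 3 and 6 h no siFBL library of SMC1A, SMC3, RAD21, STAG1, SMC2, SMC4, SMC5 or SMC6 reached the siCTRL libraries, and at 3 h this held for STAG2 too. Among all genes tested, 31.1% at 3 h and 29.7% at 6 h had both siFBL libraries below both siCTRL libraries.

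**Figure D2:**
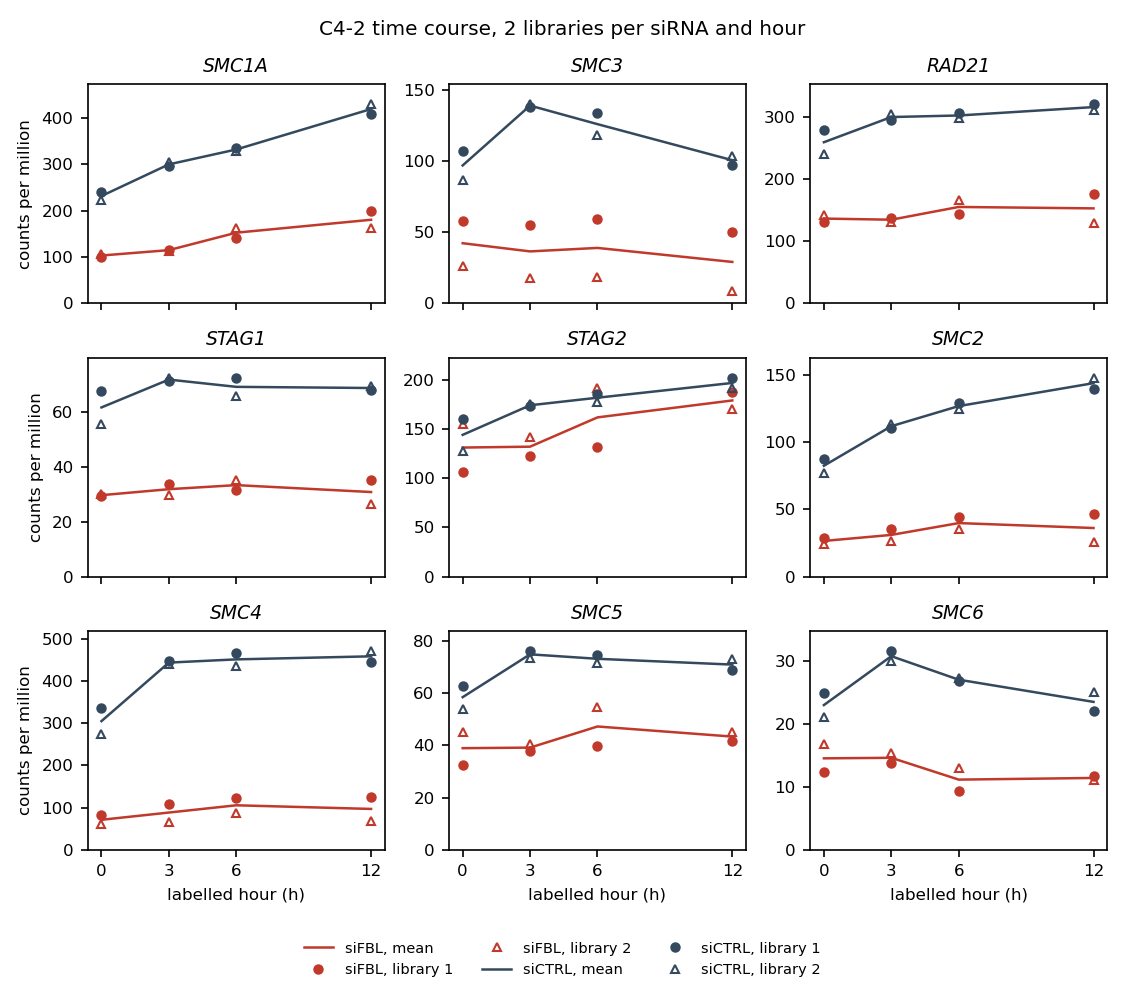
CPM over labelled hours in C4-2, with siFBL in red and siCTRL in dark blue, lines being means of 2 libraries and points single libraries (filled 1, open 2). The siFBL mean of SMC4 is 0.233, 0.199, 0.234 and 0.211 of the siCTRL mean from 0 to 12 h, the lowest ratio of the 9 genes at each hour, that of STAG2 is 0.91, 0.758, 0.89 and 0.91, the highest, and the siFBL libraries of SMC3 stay apart at every hour.

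Of 33 partners tested at 0 h in C4-2, 18 were lower, none was higher and 15 were not called, and 7 had a change above 0. With library totals 16 were lower and 1 higher. The 18 included all 6 condensin subunits (NCAPD2, NCAPD3, NCAPG, NCAPG2, NCAPH and NCAPH2) with a median of -1.79, and 8 of 19 cohesin partners. CDCA5, the sororin that protects cohesion (-2.36 ± 0.20), ESPL1, the separase (-2.24 ± 0.20) and ESCO2, an acetyltransferase of SMC3 (-2.22 ± 0.40), fell most. At 12 h 22 were lower and MAU2, the other loader subunit, was higher (1.01 ± 0.28, adjusted p = 0.028). Proliferation genes fell with them: all 10 of the list (MKI67, TOP2A, CCNB1, CCNB2, CCNA2, CDK1, PLK1, AURKA, AURKB and BUB1) were lower at 0 h, with a median of -2.16, and at 12 h, with a median of -2.47. The part of that fall in the changes of SMC2, SMC4 and the other members was not tested.

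In HEK293T no member was called lower with siFBL or siNOP56 at 0 or 24 h. With siFBL at 0 h, 1 of 9 was called, against 1.74% of all genes, 0.93% higher and 0.81% lower (139 and 121 genes, and 84 and 205 with library totals). STAG1 had 53 and 48.6 CPM in siFBL, against 27.9 and 30.9 CPM in siCTRL, a rise of 1.73-fold (0.79 ± 0.17, edgeR adjusted p = 0.031). At 24 h STAG1 had 47.2 and 54.1 CPM in siFBL, against 21.5 and 21.1 CPM in siCTRL (1.25 ± 0.18, adjusted p = 4.3e-04). The call at 0 h was lost when any of the 4 libraries contrasted was left out (adjusted p between 0.13 and 0.36). The call at 24 h was lost in 1 of 12 alternatives, with only the 4 libraries contrasted (adjusted p = 0.087).

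STAG2 had 236.5 and 248.1 CPM in siFBL at 24 h, against 158.1 and 165 CPM in siCTRL (0.59 ± 0.19, adjusted p = 0.049), and leaving out any of these 4 libraries ended the call (adjusted p between 0.086 and 0.22). At 24 h 15.1% of all genes were called, 8.96% higher and 6.11% lower (1338 and 913 genes, and 996 and 1175 with library totals), and the members called were STAG1 and STAG2. SMC4 had 266.6 and 219.8 CPM in siFBL at 0 h, against 194.4 and 197.6 CPM in siCTRL (0.31 ± 0.17, adjusted p = 0.36). SMC2 had 71.5 and 46.8 CPM in siFBL, against 68.9 and 66.4 CPM in siCTRL (-0.19 ± 0.28, adjusted p = 0.76). Without the siFBL libraries numbered 1 at any hour SMC2 was called lower, at -0.60 (adjusted p = 0.011) at 0 h and -0.91 (3.4e-04) at 24 h, with the lone siFBL library per hour taken to vary like siCTRL and siNOP56. RAD21, SMC1A, SMC5, SMC6 and SMC3 were between -0.07 and 0.15 at 0 h, with adjusted p-values from 0.69 upwards.

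With siNOP56 none of the 9 was called at 0 h by edgeR or DESeq2 (1 had an unadjusted p under 0.05, STAG1), against 0.187% of all genes, 0.12% higher and 0.0669% lower (18 and 10 genes, and 6 and 9 with library totals). STAG1 had 47.2 and 39.2 CPM in siNOP56, against 27.9 and 30.9 CPM in siCTRL (0.55 ± 0.17, adjusted p = 0.20). At 24 h 2 of 9 were called, against 5.31% of all genes, 3.58% higher and 1.73% lower (535 and 259 genes, and 231 and 339 with library totals). STAG1 had 34.2 and 43.8 CPM in siNOP56, against 21.5 and 21.1 CPM in siCTRL (0.87 ± 0.17, adjusted p = 0.011), and SMC6 had 42.6 and 54.1 CPM, against 30 and 30.4 CPM in siCTRL (0.68 ± 0.18, adjusted p = 0.036). Both calls were lost without siCTRL library 1 or 2 or siNOP56 library 2 at 24 h. SMC3 had 50.8 and 100.6 CPM in siNOP56 at 24 h, against 37.7 and 40.8 CPM in siCTRL (0.95 ± 0.47, adjusted p = 0.27), and was not called. The siFBL and siNOP56 contrasts share their siCTRL libraries.

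Of 31 tested partners in HEK293T, none was called at 0 h with either siRNA by edgeR or DESeq2, and by edgeR 2 had an unadjusted p under 0.05 with siFBL and 0 with siNOP56. At 24 h of siFBL, NCAPD3 (0.53 ± 0.17) and NCAPD2 (0.51 ± 0.11), condensin subunits, were higher and NSMCE2 lower (-0.49 ± 0.14). At 24 h of siNOP56, NCAPD2 was higher (0.48 ± 0.11). With library totals 1 partner was higher and 2 lower with siFBL, and none was called with siNOP56. Of the 10 proliferation genes, none was called at 0 h by edgeR or DESeq2 (1 had an unadjusted p under 0.05 with siFBL and 0 with siNOP56), and 1 was higher at 24 h of siFBL.

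**Figure D3:**
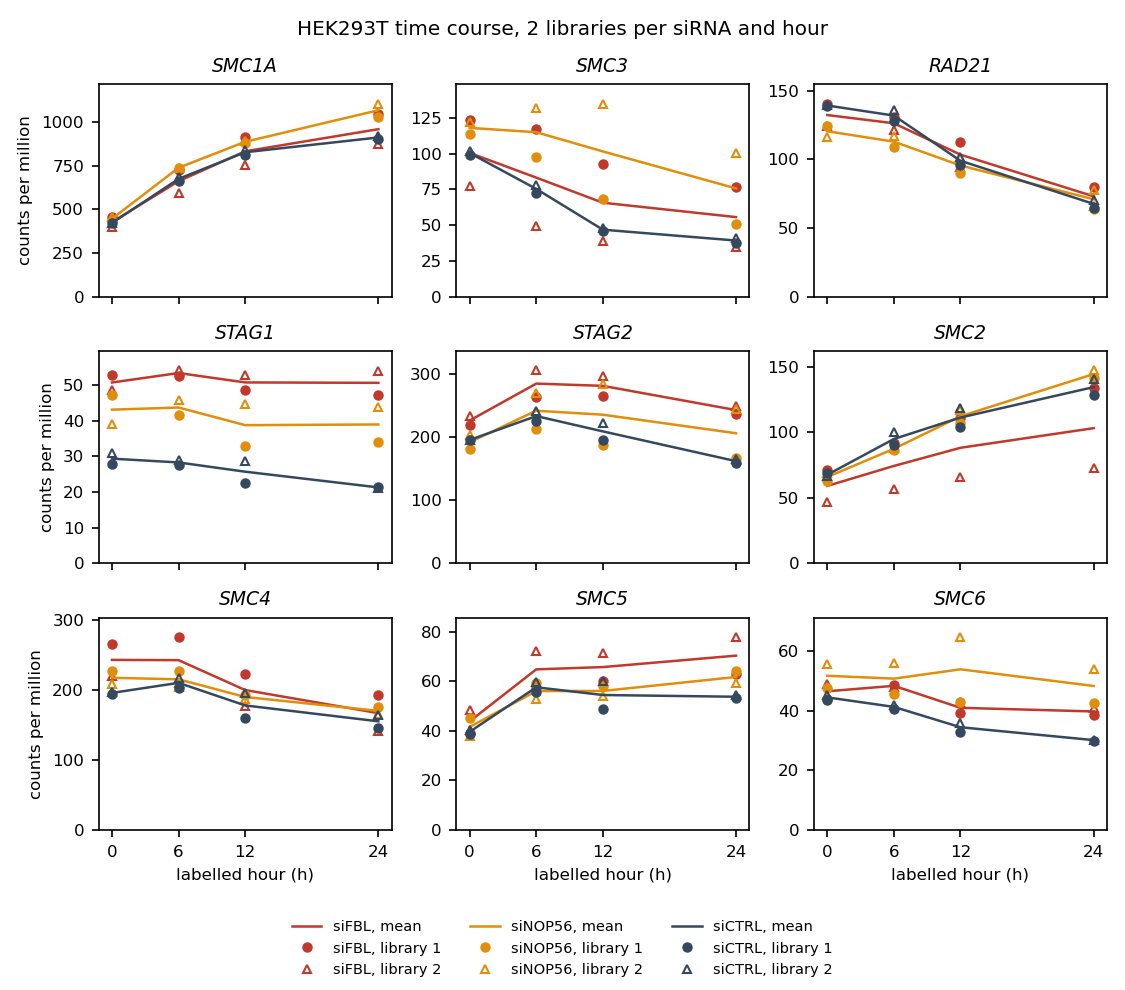
CPM over labelled hours in HEK293T, with siFBL in red, siNOP56 in orange and siCTRL in dark blue, lines being means of 2 libraries and points single libraries (filled 1, open 2). The siFBL mean of STAG1 is 1.73, 1.89, 1.97 and 2.38 times the siCTRL mean from 0 to 24 h. Its siNOP56 mean is 1.47, 1.54, 1.51 and 1.83 times the siCTRL mean. The points of SMC3 and SMC2 split by library within siFBL.

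The difference between the lines was tested itself, as the siFBL change in C4-2 minus that in HEK293T at 0 h. It comes from 1 joint fit of all libraries of both lines over 17634 shared genes with 1 scaling, so its values differ from the subtraction of the changes fitted in each line. Line, time course, sequencing depth and the FBL level left after siFBL differ together, so they cannot be told apart here. For 5 of 9 members it was called, all lower in C4-2, against 7.49% of all genes called, 3.26% higher and 4.24% lower (574 and 747 genes, and 832 and 506 with library totals). SMC4 had -2.19 ± 0.32 (edgeR adjusted p = 7e-05), STAG1 -1.63 ± 0.22 (3.1e-05) and SMC1A -0.97 ± 0.15 (1.6e-04). SMC2 had -1.22 ± 0.38 (0.044) and RAD21 -0.64 ± 0.18 (0.029). The calls of SMC4, STAG1 and SMC1A were kept in each of the 13 alternatives tried. With scaling factors computed within each line, added after the data were seen, the same 5 members were called, at -2.30 for SMC4, -1.74 for STAG1, -1.34 for SMC2, -1.08 for SMC1A and -0.75 for RAD21. SMC2 lost its call with library totals (-1.10, adjusted p = 0.10) and without C4-2 siCTRL library 1, C4-2 siFBL library 2, either HEK293T siCTRL library or HEK293T siFBL library 1. RAD21 lost it with library totals (-0.51, adjusted p = 0.11) and without C4-2 siCTRL library 1, C4-2 siFBL library 1 or HEK293T siFBL library 1. STAG2 had the smallest difference (-0.14 ± 0.27, adjusted p = 0.87). Of 32 partners, 15 were called lower, led by ESPL1 (-2.08 ± 0.34) and CDCA5 (-2.07 ± 0.29), and 9 of 10 proliferation genes were called lower, with a median of -2.04.

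**Figure D4:**
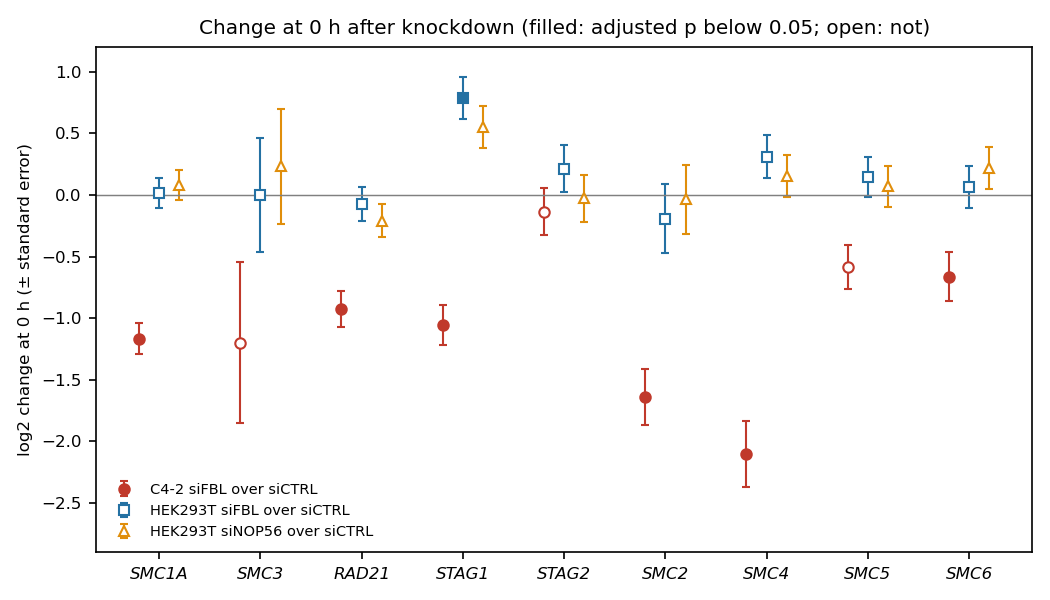
Log2 change at 0 h with its standard error for siFBL over siCTRL in C4-2 (red circles) and in HEK293T (blue squares), and siNOP56 over siCTRL in HEK293T (orange triangles), where filled markers passed the adjusted p threshold of 0.05. The C4-2 values run from -2.10 for SMC4 to -0.14 for STAG2, and STAG1 is the gene with a filled marker on both sides of 0.

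Over the hours of the course, levels relative to the library moved in control cells too. In HEK293T siCTRL, SMC1A had 422.2 and 421.7 CPM at 0 h, 663.9 and 685.4 CPM at 6 h, 813.7 and 841 CPM at 12 h, and 902.2 and 922.1 CPM at 24 h. The slope was 0.042 ± 0.010 log2 per hour (edgeR adjusted p = 0.002), and SMC2 had 0.039 ± 0.011. RAD21 had 139 and 139.5 CPM at 0 h and 64.9 and 70.2 CPM at 24 h, a slope of -0.046 ± 0.006 (adjusted p = 1.2e-05), and SMC3 had -0.057 ± 0.017 (0.0081). SMC6 and STAG1 were also lower with time, at -0.024 ± 0.007 and -0.020 ± 0.007. So 6 of 9 were called, 2 up and 4 down, against 50.1% of all genes, 21.8% up and 28.3% down (3259 and 4230 genes, and 1659 and 6874 with library totals). With library totals SMC2 lost its call (0.016, adjusted p = 0.19), SMC1A was at 0.020 (0.016), and SMC4 (-0.039) and STAG2 (-0.038) were called as lower with time. Without the last hour SMC6 and STAG1 lost their calls (adjusted p = 0.059 and 0.25). Without siCTRL library 2 at 24 h STAG1 lost its call (adjusted p = 0.052). Of 31 partners, 3 rose and 18 fell (2 and 25 with library totals), among them NSMCE2 (0.066) and CTCF, the insulator protein that stops cohesin (-0.14).

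In C4-2 siCTRL 2 of 9 were called, against 34.1% of all genes, 15.4% up and 18.6% down (3611 and 4371 genes, and 1569 and 6011 with library totals). SMC1A had a slope of 0.068 ± 0.010 log2 per hour (adjusted p = 3.9e-05) and SMC2 0.062 ± 0.019 (0.016), a call lost without siCTRL library 1 or 2 at 0 h or library 2 at 12 h. With library totals SMC1A was at 0.033 (adjusted p = 0.0014) and SMC2, no longer called, at 0.027 (0.35). No member passed the test of a slope difference between siFBL or siNOP56 and siCTRL, by edgeR or DESeq2. With an unadjusted p under 0.05 there was 1 member with siNOP56 in HEK293T (SMC6) and none with siFBL in either line, where 0.00427% of genes in C4-2 and 0% in HEK293T were called (449 of all genes had an unadjusted p under 0.05 with siFBL and 197 with siNOP56 in HEK293T). The slope difference farthest from 0 was that of SMC3 in C4-2, -0.033 ± 0.072 log2 per hour, and its sign was not settled, since the alternatives gave -0.15 to 0.028. A slope difference that did not pass the test at such standard errors does not show equal slopes. These slopes are relative to each library, so they do not give a half-life.

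SMC3 differed between the siFBL libraries numbered 1 and 2 at every hour in both lines. In C4-2 siFBL, libraries 1 and 2 had 58.1 and 26.4 CPM at 0 h, 55.2 and 17.8 CPM at 3 h, 59.5 and 18.3 CPM at 6 h, and 49.8 and 8.30 CPM at 12 h. In HEK293T siFBL, they had 123.7 and 77.4 CPM at 0 h, 117.4 and 49.1 CPM at 6 h, 92.5 and 39 CPM at 12 h, and 76.4 and 34.9 CPM at 24 h. Library 2 was the lower at all 4 hours in each line, by a mean log2 of -1.76 in C4-2 and -1.08 in HEK293T. In siCTRL the same differences were -0.09 in C4-2 and 0.08 in HEK293T, and in siNOP56 the difference was 0.63, library 2 being the higher at all 4 hours.

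Other members split less. The same difference in siFBL was -0.63 for SMC4 and -0.47 for SMC2 in C4-2, and -0.36 and -0.74 in HEK293T, with library 2 the lower at all 4 hours. SMC5 went the other way in both lines (0.28 and 0.30). Among 10027 genes of C4-2, 0.269% had a lower mean difference than SMC3, and among 10359 genes of HEK293T 2.2%. For SMC4 and SMC2 the shares were 6.36 and 10.8% in C4-2, and 17.8 and 5.86% in HEK293T. For SMC5 they were 83.4% in C4-2 and 75.4% in HEK293T. The share of all genes that were lower in library 2 at all 4 hours was not counted. The C4-2 numbers are those in the column names, and the sources do not say what sets the libraries apart. FBL itself also differed between siFBL libraries 1 and 2. In C4-2, libraries 1 and 2 had 3.63 and 2.76 CPM of FBL at 0 h, and 0.601 and 1.75 CPM at 12 h. In HEK293T, they had 17.7 and 15.5 CPM at 0 h, and 7.19 and 14.8 CPM at 24 h. Library 2 was the lower in FBL at 0 h and the higher at each later hour in both lines. Whether this bears on the SMC3 split was not tested. With only the siFBL libraries numbered 2 in the fit, SMC3 at 0 h in C4-2 was at -1.88 and with only those numbered 1 at -0.68. At 12 h it was at -3.60 and -0.99, and all 4 values were called by edgeR. Such fits have 1 siFBL library per hour, take the spread from siCTRL alone and were added after the data were seen.

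Genes whose time course was most like that of SMC3 were named by Pearson's r over 20 group means of log2 CPM, centred within each line, among 8859 genes. They were KIF22 (0.953), CDCA7L (0.951), SMC6 (0.949), TIPIN (0.949) and ADIPOR2 (0.946). Among the members SMC4 and RAD21 followed at 0.861 and 0.836, and STAG2 was lowest at 0.269. In HEK293T alone SMC2, SMC5 and SMC1A had values of -0.618, -0.529 and -0.64, opposite in sign to those in C4-2. The points share libraries, siRNAs and hours, so the values are descriptions.

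In SLAM-seq, SMC3 was lower in total reads in siFBL cells, the contrast by which the list was chosen. Its lowest, median and highest CPM over 8 libraries were 2.30, 4.89 and 9.79 in siFBL, against 8.35, 17.5 and 24.2 in siCTRL. Its log2 difference was -1.71, and the libraries overlapped, since the highest siFBL library was above the lowest siCTRL library. It rests on few reads: 29 to 180 per siFBL library and 142 to 895 per siCTRL library. Among all 13130 genes 1.05% were called, 0.388% higher and 0.663% lower. The reads of SMC3 come from 1 interval given for its 3′ end, at chr10:110604303-110606048 (hg38, + strand). The GENCODE v29 model of SMC3 used for levels per kb ends at 110604636, inside that interval. The other 8 members were between -0.41 (SMC2) and 0.16 (SMC5), with overlapping libraries. Of 26 partners, ESCO1, another acetyltransferase of SMC3, was lower (-0.80, edgeR adjusted p = 0.021) and none was higher.

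The condensin pair and the other cohesin members had other values in SLAM-seq than in the time course. The line and the siRNA names were the same in both. SMC4 had 11.9, 14.3 and 18.2 CPM in siFBL (lowest, median and highest), against 12.5, 13.8 and 16.1 in siCTRL. Its log2 difference was 0.09 in SLAM-seq and -2.10 at 0 h of the time course. SMC1A, RAD21 and STAG1 were at -0.10, -0.02 and -0.02 in SLAM-seq, and at -1.17, -0.93 and -1.06 in the time course. None of the 10 proliferation genes was called in SLAM-seq total reads by edgeR or DESeq2, and 0 had an unadjusted p under 0.05. The 2 experiments differ in library type, with 3′ end reads in SLAM-seq, and in labelling, since SLAM-seq cells took up thiol-labelled uridine. The SLAM-seq values also cover libraries of all labelled hours, while the time-course values are contrasts at 0 h. FBL had few reads in SLAM-seq, at 0 to 0.086 CPM in siFBL and 0.126 to 1.94 CPM in siCTRL. The size of the FBL fall is therefore poorly measured there. The values of the 2 experiments were not tested against each other.

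No member passed the test of a difference in the share of reads with T>C conversions, by edgeR or DESeq2, and none had an unadjusted p under 0.05. For SMC3 the lowest, median and highest share over 8 libraries was 1.67, 18.3 and 81.9% in siFBL, against 0.704, 26.1 and 92.2% in siCTRL. The log2 odds difference of SMC3 was -0.17 ± 0.68, and that of STAG1, the largest, 0.48 ± 0.37. Among all 12639 genes 0% were called, and 247 had an unadjusted p under 0.05. The fit held a term for the labelled hour, but libraries with the same label differed widely. At labelled 0 h the siCTRL libraries had 56.77 and 11.07% T>C reads over all intervals. At such a spread a test that was not passed does not show equal shares. For 12 of 16 libraries the header names another hour than the label, so no loss of label over time is given. T>C shares over all intervals matched in pairs across labelled hours for each siRNA and library number. In siCTRL library 1 they were 56.77 and 56.68% at 0 and 12 h, and 23.24 and 22.96% at 24 and 6 h. Deviations of same-numbered libraries of 1 siRNA correlated between labelled hours at -0.65 to 0.92. The fits of shares and total reads count each library as independent, and whether paired libraries are separate samples cannot be told here.

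**Figure D5:**
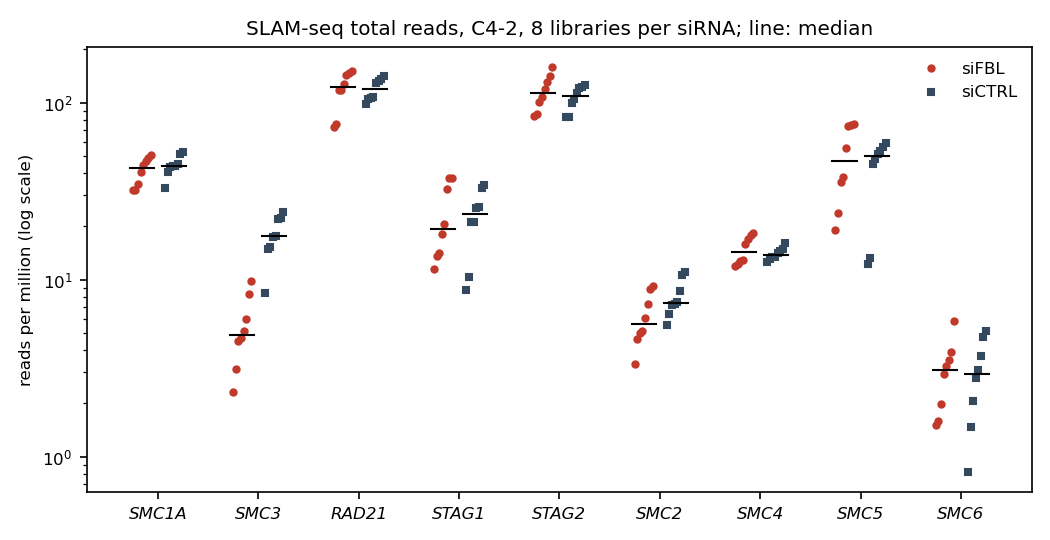
SLAM-seq CPM, on a log axis, for the 9 genes in 8 siFBL and 8 siCTRL libraries of C4-2, each point being 1 library and each line a median. SMC3 has its siFBL median at 4.89 against 17.5 in siCTRL, and the points of the siRNAs overlap for every gene.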

How the data were processed

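RIP and time-course files hold raw counts per gene symbol as the authors deposited them. The submitters' processing notes list TopHat2 2.1.1, HOMER and Trim Galore without saying what each did. The SLAM-seq files hold read and T>C read counts per 3′ interval from slamdunk 0.4.3, per the file headers. The deposited CPM score served to recover mapped totals, and a gene's interval with most reads stands for it.

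Counts were tested with edgeR 4.0.16 in R 4.3.3 (TMM scaling, default low-count filter, quasi-likelihood test, Benjamini-Hochberg adjustment over all genes, threshold 0.05), checked on simulated data. DESeq2 1.42.0, other scalings, no filter and left-out libraries were alternatives. All libraries of a time course shared 1 fit. With 2 libraries per siRNA and hour, a gene that was not called is not shown to be unchanged. Members and lists were chosen with earlier results of these data known. The promoter words were chosen after the sequences were seen. Up to 3 called partners per direction, at 5 CPM or more, could be named. Nothing states that libraries are separate cultures, so p-values measure the spread between libraries, which may be technical. Whether counting used strand is not stated. C4-2 columns were matched to groups, not to single samples. The 4 nanopore libraries were not analysed here. The marker check of C4-2 is not reported here.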

Additional observations from a re-analysis of the deposited data

Results flagged for a closer look

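The siFBL change at 0 h differed between the C4-2 and HEK293T time courses for 5 members in a test of the difference itself (edgeR), from 1 joint fit of both lines with 1 scaling. Line, sequencing depth and the FBL level left after siFBL cannot be told apart in it. The log2 difference, C4-2 minus HEK293T, was -2.19 for SMC4, -1.63 for STAG1, -1.22 for SMC2, -0.97 for SMC1A and -0.64 for RAD21. Proliferation genes moved with it: 9 of 10 were called lower in the same test, with a median of -2.04, and their part in the result was not tested.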

How the results depend on the processing

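The 9 calls in RIP held in all 9 alternatives except for the sign of RAD21, which was -0.22 with library totals. In C4-2 siFBL the members called were 5 to 9 of 9 at 0 h, against 6, and 6 to 8 at 12 h, against 7. In HEK293T siFBL at 0 h the 1 call became 0 with library totals, with only the 4 libraries contrasted, without siFBL library 2 at any hour and without each library in turn (0 to 0). At 24 h the 2 calls became 1 with RLE size factors, library totals, or no siFBL library 2, 0 with only the 4 libraries contrasted, and 1 to 1 without each library in turn. For siNOP56 at 24 h the 2 calls became 1 with library totals or no low-count filter, 0 with only the 4 libraries contrasted, and 0 to 2 without each library in turn. For the difference between lines the 5 calls became 3 with library totals and 3 to 6 without each library in turn, and for the C4-2 siCTRL slope the 2 calls became 1 with library totals and 1 to 2 without each library in turn. A count of members can stay the same while the gene called changes. In HEK293T siFBL, STAG1 at 0 h lost its call in 8 of 12 alternatives and STAG2 at 24 h in 9 of 12. For both genes these include the fit without siFBL library 1 at any hour. The causes were not tested.

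With a replicate block in HEK293T, 1 member was called at 0 h and 2 at 24 h of siFBL, 0 and 2 with siNOP56, and 7 in the siCTRL slope; in RIP 9 were called. The T>C share had 0 members called with the block. Same-numbered libraries of different siRNAs correlated at -0.14 to 0.22 in HEK293T and -0.56 to 0.55 in SLAM-seq, so the numbers were not taken to pair them. In C4-2, where the number is that in the column name and different siRNAs correlated at -0.12 to 0.18, a replicate block added after the data were seen called 7 members at 0 h (SMC5 was gained) and 8 at 12 h (SMC3 was gained), 2 in the siCTRL slope and 0 in the slope difference, against 6, 7, 2 and 0. Over all genes it called 2670 at 0 h and 3966 at 12 h. The counts over all genes ranged from 633 to 6415 at 0 h of C4-2 siFBL, against 1988, from 1352 to 8424 at 12 h, against 3144, from 1 to 1985 at 0 h of HEK293T siFBL, against 260, from 0 to 4141 at 24 h, against 2251, and from 0 to 213 and 0 to 1485 with siNOP56, against 28 and 794. Library totals moved the median log2 change of all genes to 0.29 at 0 h and 0.21 at 12 h in C4-2, against 0.04 and 0.00. The sign of values called in neither fit was not compared.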
